A study of Mus musculus with 8 samples.

Results

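The genes described here encode the factors that start and extend protein synthesis on cytosolic ribosomes, together with the inhibitors and kinases that act on them. They were chosen by name. Every line of the gene table whose symbol began with Eif1 to Eif6 or with Eef1 or Eef2 was taken, except Eif2ak2 and names that end in -ps. This gave 69 of 45706 lines. Of these, 53 were core factors (46 initiation and 7 elongation factors), 6 were regulators of initiation (3 Eif4ebp and 3 Eif2ak genes) and 4 modify or bind a factor. A further 5 were pseudogene lines with numbered names, and 1 line, Eif2c5, carried an Argonaute-type name. The split of core factors into initiation and elongation follows the Eif or Eef prefix of the name. Eif5a, Eif6 and Eif4a3 thus count as initiation factors and Eef1e1 as an elongation factor, whatever roles are given for them below.

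RNA-seq was done on muscle stem cells, the quiescent progenitors that lie on muscle fibres and divide after injury. The cells came from hindlimb muscle of wild-type C57BL/6 females aged 8 to 12 weeks and were sorted as CD45-, Sca1-, CD31-, CD11b-, α7-integrin+ and CD34+. The fresh group held 5 libraries made directly after the sort, and the cultured group 3 libraries of such cells kept for 48 h on a hydrogel of 12 kPa, with a medium of 20% serum listed for all libraries. Fresh replicates 1 to 3 formed sequencing run 1, and fresh replicates 4 and 5 shared run 2 with all cultured libraries. Total counts were between 13919440 and 20068154 per library. The sources do not say whether libraries came from separate animals or cultures, so a p-value here speaks only of how far these 8 samples spread, and part of that spread may be technical.

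Initiation begins when eIF2 brings the initiator tRNA to the small ribosomal subunit and eIF4F, made of the cap-binding protein eIF4E, the scaffold eIF4G and the helicase eIF4A, recruits the mRNA. The eIF4E-binding proteins (Eif4ebp genes) keep eIF4E from the scaffold until mTORC1 phosphorylates them, and the eIF2α kinases (Eif2ak genes) phosphorylate eIF2 and so block its exchange factor eIF2B. Quiescent muscle stem cells are known to hold protein synthesis low, in part through phosphorylated eIF2α. All of this is protein-level control, whereas mRNA levels were measured here.

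After 48 h in culture, 22 of 44 tested initiation factor mRNAs and 1 of 6 tested elongation factor mRNAs were higher. These classes follow the Eif or Eef prefix of the name, and no test compared them. Of the 50 core factors with enough counts to be tested, 23 rose and 1 fell, and 26 did not pass the test (adjusted p under 0.05 in edgeR's quasi-likelihood test, Benjamini-Hochberg adjusted over all 19054 genes tested, to which every adjusted p below refers). Among all genes tested, 8.87% rose and 18.0% fell, 26.9% in either direction. The median log2 fold change was 1.07 over core factors and -0.21 over all genes. In 31 of the 50 core factors every cultured library lay above every fresh one, and in 1 every cultured library lay below, against 13.7% and 26.1% of all genes. The 46 initiation factors gave 44 tested, of which 22 rose and none fell (median log2 fold change 1.19), and in this fit none was lower at an unadjusted p under 0.05, nor in DESeq2. Against run-1 fresh libraries alone 30 rose and 1, Eif4b, fell. The 7 elongation factors gave 6 tested, of which Eef1g rose and Eef1a1 fell (median 0.01). Among genes with a mean level of at least 10 CPM (counts scaled by library size), which include 49 of the core factors, 16.5% rose and 16.6% fell.

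**Figure D1:**
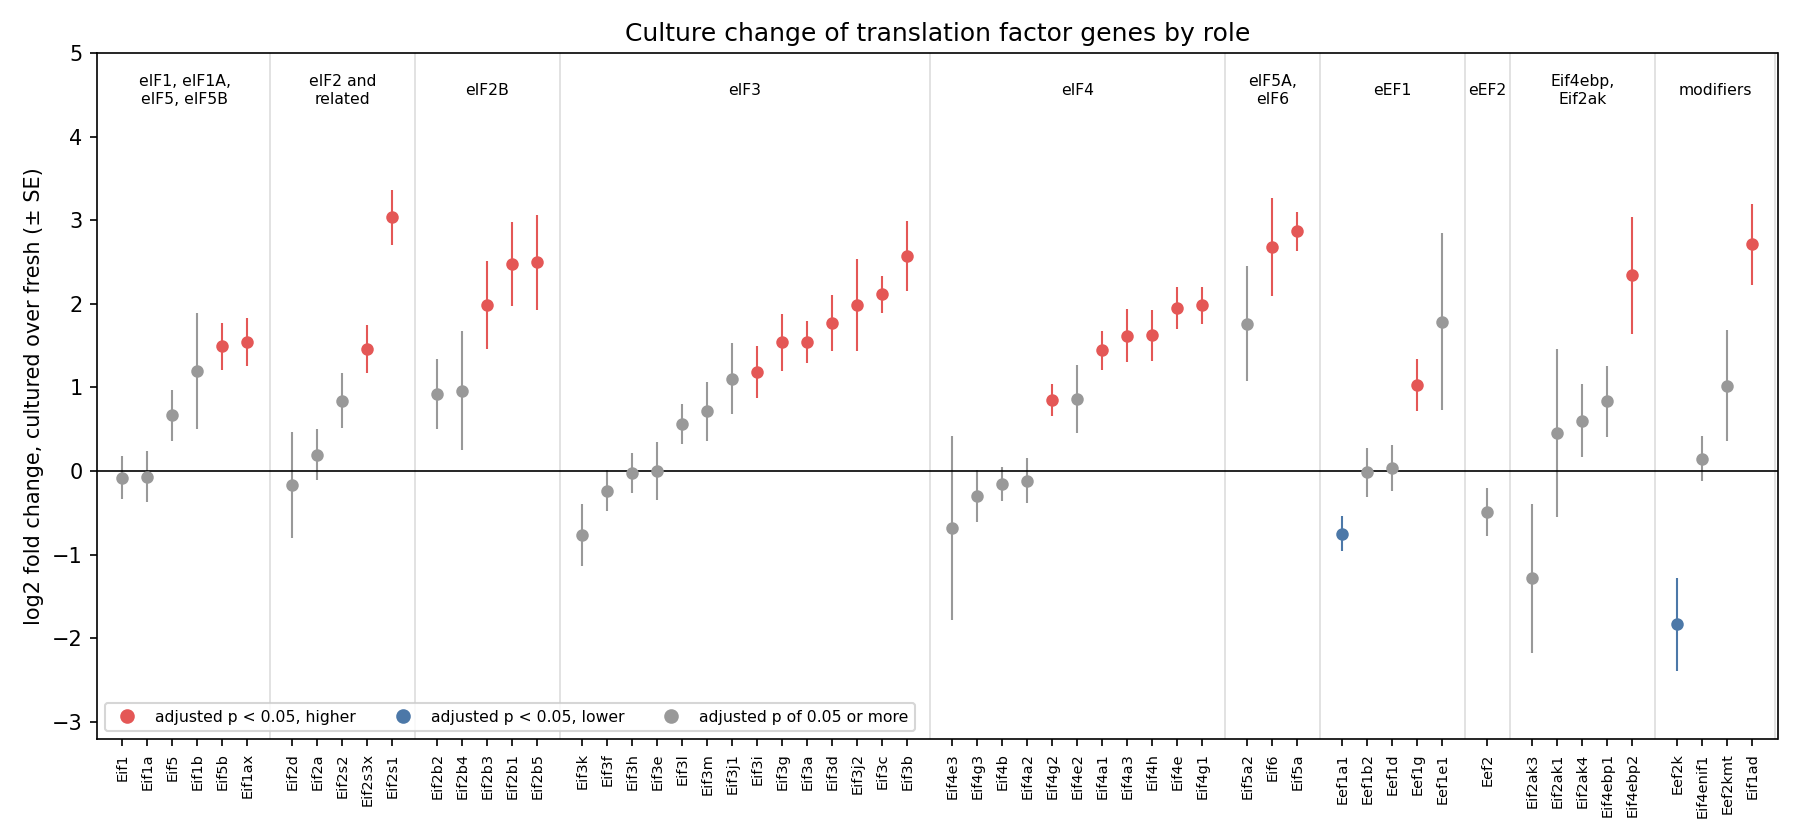
Log2 fold change (vertical axis, cultured over fresh, with the standard error as a bar) of each tested core factor, regulator and modifier, 1 point a gene, grouped by role, in red where the gene rose, blue where it fell and grey where it did not pass. Points of eIF2B and most of eIF3 and eIF4 lie above 0, while eEF1 and eEF2 genes lie on both sides of it.

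Fold changes set cultured cells against the run-2 fresh libraries, since run is a term in the model. In fits against run-1 fresh libraries alone, culture and run cannot be told apart. Between fresh libraries of the 2 runs, no core factor passed edgeR's test, against 0.189% of all genes. At an unadjusted p under 0.05 the run-2 libraries had 5 of the 50 core factors higher and 5 lower. With 3 libraries against 2, this does not show that the fresh runs are alike. Genes with a count numbered 34008, 32710 and 34689 in run-1 fresh and 20480 and 20898 in run-2 fresh libraries. In cultured replicates 1 to 3 they numbered 15415, 17852 and 17806. Why these numbers differ was not tested. Relative to the mean of the run-2 fresh libraries, the median core factor stood between -0.12 and 0.10 (log2) in the 5 fresh libraries. It stood at 1.19, 1.01 and 0.96 in cultured replicates 1 to 3. Leaving out fresh replicate 4 gave 14 core factors that rose, and leaving out fresh replicate 5 gave 18, with 908 and 896 of all genes rising in those fits in place of 1691. Without any 1 of the other libraries it was 22 to 25. With library totals left unscaled, 29 core factors rose and none fell, at a median of 1.46, while the median of all genes moved from -0.21 to 0.03 and the share of called genes that rose from 33.0% to 46.2%. In bulk libraries, fewer cells of a type and less RNA per cell cannot be told apart.

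Summed over genes, the initiation factors took 6209 to 7446 CPM in the fresh libraries and 13055 to 15187 CPM in the cultured ones, where CPM is scaled by each library's TMM factor. The elongation factors took 6966 to 9188 CPM in fresh and 5321 to 6948 CPM in cultured libraries. Neither sum overlapped between the groups, and they differed in opposite directions, but the lowest fresh and highest cultured elongation sums were close. With library totals unscaled the elongation sums overlapped (6413 to 9987 CPM in fresh and 6088 to 6579 CPM in cultured libraries), while the initiation sums did not (5673 to 8094 and 14380 to 15403 CPM). The elongation sum rests on Eef1a1 and Eef2. The other 5 elongation factors together took 620.2 to 1029 CPM in fresh and 1143 to 1363 CPM in cultured libraries on the TMM scale. The eIF3 subunits alone went from 1589.9 to 2035 CPM in fresh to 3997 to 5016 CPM in cultured libraries.

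**Figure D2:**
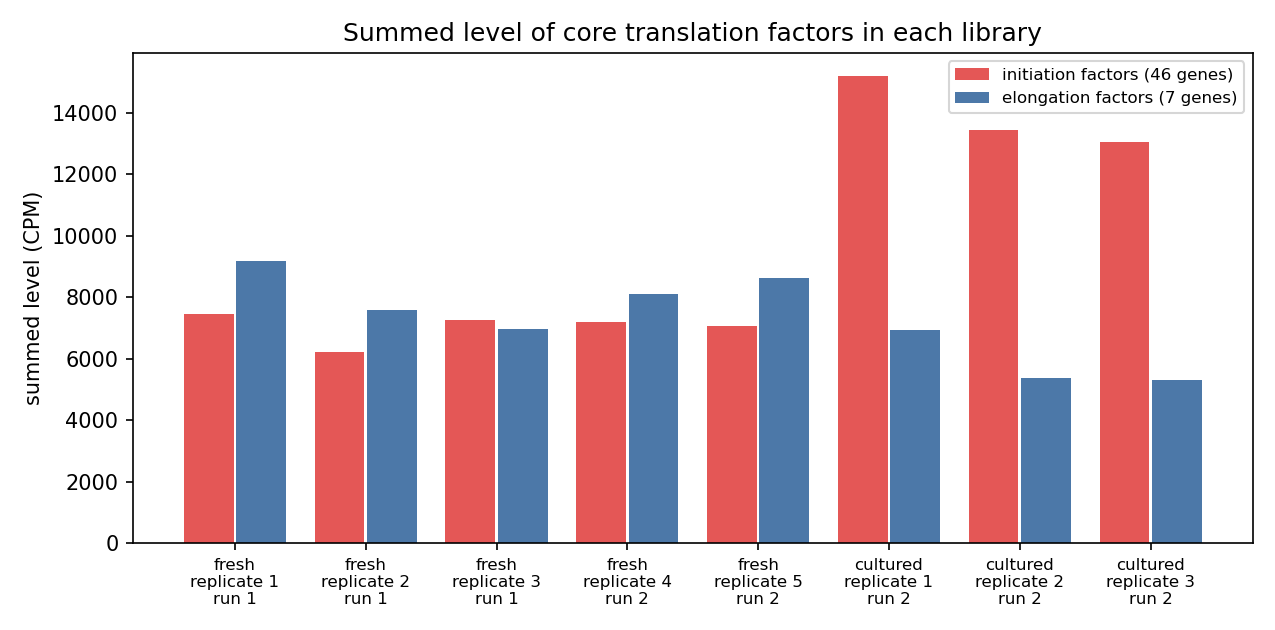
Summed level in CPM of the 46 core initiation factors (red bars) and the 7 core elongation factors (blue bars) in each library. The classes follow the Eif or Eef prefix of the name. The 8 libraries are labelled by group, replicate and run. Red bars reach 13055 to 15187 CPM in culture, above all fresh libraries, and blue bars 5321 to 6948 CPM, below all fresh libraries on this TMM scale (with unscaled totals the blue bars of the groups overlap).

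The eIF2 complex delivers the initiator tRNA. Eif2s1, which encodes its α subunit and carries the serine that the eIF2α kinases phosphorylate, had the largest fold change of the core factors. Its level was 37.8, 32.9, 56.7, 40.9 and 48.2 CPM in fresh replicates 1 to 5 and 439, 332 and 325 CPM in cultured replicates 1 to 3. The groups were far apart, and the gene rose 8.2-fold (log2 fold change 3.04 ± 0.33, adjusted p = 0.000581). Eif2s1 lies on chromosome 12, 78861819 to 78887010, plus strand of GRCm38. Eif2s3x, the γ subunit that binds the tRNA and GTP, read 121, 97.1, 106, 128 and 143 CPM in fresh cells and 503, 287 and 329 CPM in culture and rose 2.75-fold (log2 fold change 1.46 ± 0.29, adjusted p = 0.00726). Cultured replicate 1 was the highest library for both genes. Eif2s2, the β subunit, did not pass the test, although its cultured libraries (202 to 343 CPM) all lay above the fresh ones (75.2 to 163 CPM; log2 fold change 0.84 ± 0.33, adjusted p = 0.0914). Without cultured replicate 1 it did pass (log2 fold change 1.10, adjusted p = 0.025). The Y-linked Eif2s3y was at 0 or 1 count in every library of these female mice and was not tested. Of the alternative tRNA carriers, Eif2a (log2 fold change 0.20, adjusted p = 0.685) and Eif2d (-0.16, adjusted p = 0.898) did not pass. In all, 2 of the 5 tested genes of this group rose (40.0%, against 8.87% of all genes).

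eIF2B is the exchange factor that reloads eIF2 with GTP and is the target of phosphorylated eIF2α. For each of its 5 subunits every cultured library lay above every fresh one, as for 13.7% of all genes. Of the 5, 3 subunits rose (60.0%, against 8.87% of all genes). Eif2b5, the catalytic ε subunit, had the largest fold change, at 24.6, 17.8, 12.1, 10.6 and 9.38 CPM fresh and 36, 42.1 and 90.7 CPM in culture (log2 fold change 2.50 ± 0.57, adjusted p = 0.0122). Eif2b1, the α subunit of the regulatory part, read 9.84 to 24.6 CPM in fresh and 41.5 to 85.1 CPM in cultured libraries (log2 fold change 2.48 ± 0.50, adjusted p = 0.00776). Eif2b3, the γ subunit, read 13 to 25.8 and 37.8 to 103 CPM (log2 fold change 1.99 ± 0.52, adjusted p = 0.0228). These 3 genes had 144 to 452 counts in the fresh libraries, and their calls rested on both run-2 fresh libraries. Without fresh replicate 5 none of the 3 passed (adjusted p = 0.0609 for Eif2b1, 0.135 for Eif2b3 and 0.0853 for Eif2b5), and without fresh replicate 4 Eif2b1 alone did (adjusted p = 0.073 for Eif2b3 and 0.0687 for Eif2b5). Eif2b2 and Eif2b4, the remaining regulatory subunits, had log2 fold changes of 0.92 and 0.96 (adjusted p = 0.136 and 0.357).

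eIF3 is the largest initiation factor and bridges the small ribosomal subunit and eIF4G. Of its 14 genes, all tested, 7 rose and none fell, with a median log2 fold change of 1.14. Eif3c, a core subunit, was even within both groups, at 205, 168, 157, 165 and 184 CPM in fresh and 742, 743 and 781 CPM in cultured libraries. It rose 4.33-fold (log2 fold change 2.11 ± 0.22, adjusted p = 0.000485). Eif3b, the scaffold of the subcomplex with Eif3g and Eif3i, read 16 to 53.2 CPM in fresh and 102 to 169 CPM in cultured libraries (log2 fold change 2.57 ± 0.42, adjusted p = 0.00354). Eif3a, the largest subunit, went from 583 ± 88.1 CPM (SD, n = 5) to 1738 ± 236 CPM (SD, n = 3), a rise of 2.91-fold (log2 fold change 1.54 ± 0.25, adjusted p = 0.00348). Eif3d, which can bind the cap of some mRNAs, Eif3g, Eif3i and Eif3j2 completed the 7.

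The subunits of eIF3 did not move as 1 block. Eif3b, Eif3g and Eif3i, which form a subcomplex, all rose. None of Eif3e, Eif3f, Eif3h, Eif3k, Eif3l and Eif3m, which lie in the part built around PCI and MPN domains, passed the test, with a median log2 fold change of -0.01. These 2 sets were put together after their values were seen. The second set is itself mixed. Eif3l read 96 to 120.3 CPM in fresh and 138 to 172 CPM in cultured libraries (log2 fold change 0.57 ± 0.24, adjusted p = 0.111), and Eif3m 41.7 to 98.7 and 110.3 to 239.5 CPM (0.71 ± 0.36, adjusted p = 0.171). For both every cultured library lay above every fresh one, as for 13.7% of all genes. Against run-1 fresh libraries alone both passed (log2 fold change 0.68, adjusted p = 0.0396 for Eif3l and 1.86, adjusted p = 0.00426 for Eif3m), as they did without the run term or with unscaled totals. With the replicate block, a term for replicate number, Eif3m also passed (1.78, adjusted p = 0.0163). That fit too holds only run-1 fresh and cultured libraries, so in both fits culture and run cannot be told apart. Eif3f read 137 to 189 CPM in fresh and 116 to 159.9 CPM in cultured libraries (-0.23 ± 0.24 on the log2 scale, adjusted p = 0.523), and Eif3h read 205 to 279.9 and 165 to 252 CPM. Eif3k had a negative value that did not pass (-0.77 ± 0.37, adjusted p = 0.157). Eif3a and Eif3c, which also carry PCI domains, rose. For Eif3e the fresh libraries themselves were apart by run, at 60.1, 52 and 115 CPM in run 1 and 286 and 276 CPM in run 2, against 318, 229 and 298 CPM in culture. Against run-2 fresh cells its log2 fold change was 0.0028 (adjusted p = 1), and against run-1 fresh cells 1.95 (adjusted p = 0.00437). Without fresh replicate 4, the count of eIF3 genes that rose was 3, since Eif3d (adjusted p = 0.0517), Eif3g (0.0729), Eif3i (0.149) and Eif3j2 (0.113) no longer passed. Eif3j2 also failed without fresh replicate 5 (adjusted p = 0.142), and Eif3i without cultured replicate 3 (adjusted p = 0.0511). The exons of Eif3d share 2151 bases with the antisense gene Gm17638, those of Eif3j1 share 1107 bases with Spg11, and Eif3j1 and Eif3j2 are near-identical copies. Whether counting used strand is not given, so reads of these pairs cannot be told apart.

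All 3 parts of eIF4F had members that rose. Eif4e, the cap-binding protein, read 90.7, 87.6, 108, 57.6 and 64 CPM in the fresh group and 244, 201 and 260.0 CPM in culture. The lowest cultured library was above the highest fresh one, and the gene rose 3.86-fold (log2 fold change 1.95 ± 0.25, adjusted p = 0.00116). Eif4g1, the main scaffold, read 235, 208, 176, 160.5 and 154 CPM in the fresh group and 584, 655 and 623 CPM in culture and rose 3.95-fold (log2 fold change 1.98 ± 0.22, adjusted p = 0.000652). Eif4a1, the main eIF4A helicase, read 405, 299, 343, 213 and 161 CPM in fresh and 499, 509.9 and 517 CPM in cultured libraries and rose 2.72-fold (log2 fold change 1.44 ± 0.23, adjusted p = 0.00348). Its fresh libraries of run 1 were higher than those of run 2, and against run-1 fresh cells alone the log2 fold change was 0.61 (adjusted p = 0.0442). The helicase cofactor Eif4h rose 3.09-fold, Eif4a3, the helicase of the exon junction complex, 3.08-fold, and Eif4g2, a scaffold without the eIF4E site, 1.8-fold. These had log2 fold changes of 1.63 ± 0.31, 1.62 ± 0.31 and 0.84 ± 0.19 (adjusted p = 0.00585, 0.00639 and 0.0123). For Eif4g2 the call was lost without fresh replicate 4 (adjusted p = 0.0591) or 5 (adjusted p = 0.0812), at log2 fold changes of 0.92 and 0.83. The helicase cofactor Eif4b had 485 to 875 CPM in fresh and 389 to 503 CPM in cultured libraries and did not pass (log2 fold change -0.16, adjusted p = 0.628), but against run-1 fresh libraries alone it was lower (log2 fold change -0.71, adjusted p = 0.0309).

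**Figure D3:**
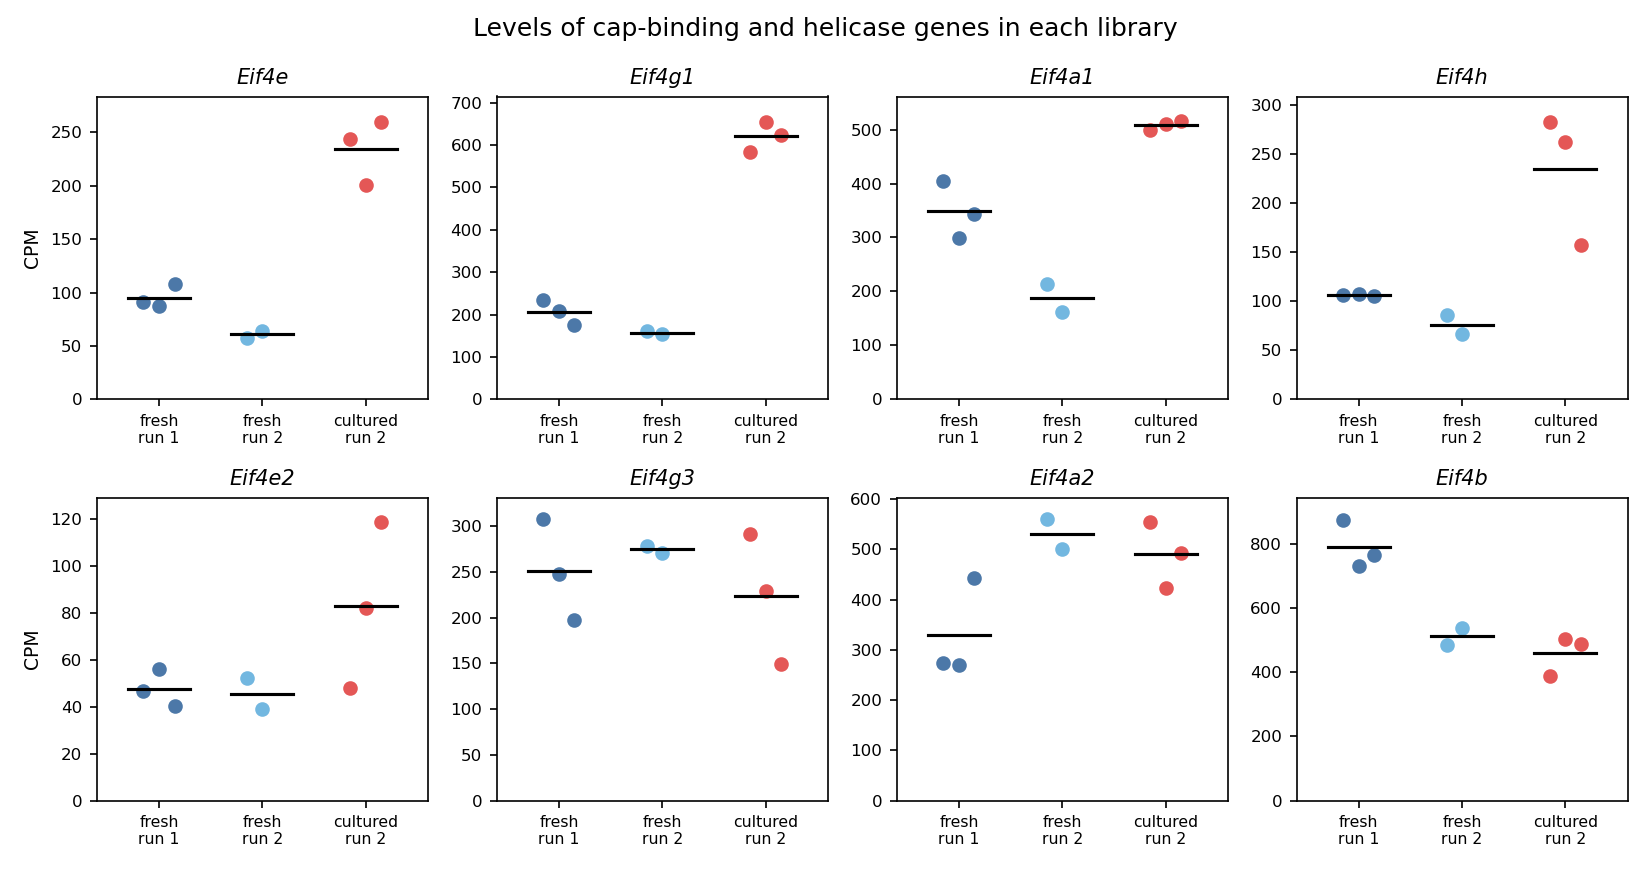
Level in CPM of Eif4e, Eif4g1, Eif4a1 and Eif4h (upper row) and of Eif4e2, Eif4g3, Eif4a2 and Eif4b (lower row), 1 point a library, by group and run, with the mean of each as a line. In the upper row every cultured library is above every fresh one, and in the lower row the groups overlap.

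Eif4e, Eif4g1 and Eif4a1 have paralogs of the same class (Eif4e2 and Eif4e3, Eif4g3, and Eif4a2) that did not pass the test. Eif4g3 read 197 to 308 CPM in fresh and 149.7 to 291 CPM in cultured libraries (log2 fold change -0.30 ± 0.31, adjusted p = 0.521). The log2 ratio of Eif4g1 to Eif4g3 was -0.48 ± 0.30 (SD, n = 5) in fresh and 1.52 ± 0.53 (SD, n = 3) in cultured libraries. Per kilobase of exon, Eif4g1 and Eif4g3 stood at 25.6 and 23.5 CPM in fresh cells and at 85.1 and 20.2 CPM in culture. The log2 ratio of Eif4e to its paralog Eif4e3 moved from 0.68 ± 0.17 (SD, n = 5) to 4.30 ± 2.69 (SD, n = 3), and Eif4e3 itself was uneven in culture (0.58, 47.6 and 21 CPM). In both pairs no cultured library overlapped the fresh ones, with differences of 2.00 and 3.62. In an exact two-sided permutation test over libraries each gave p = 0.0357, the smallest that 5 against 3 libraries allow, and 0.161 after adjustment over the 9 pairs compared, so neither passed. The Eif4e to Eif4e3 difference was 2.13 without cultured replicate 1, where Eif4e3 was near 0.

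The other pairs overlapped between the groups. Eif4a2, the helicase paralog, had 270.4 to 559.9 CPM in fresh and 423 to 554 CPM in cultured libraries (log2 fold change -0.11, adjusted p = 0.807). The Eif4a1 to Eif4a2 ratio (log2) was 0.56, 0.14 and -0.37 in run-1 fresh libraries, -1.39 and -1.63 in run-2 fresh libraries and -0.15, 0.27 and 0.07 in culture. So this ratio separated the fresh runs, and its difference was 0.60 over all fresh libraries and 1.57 against run 2 alone (exact two-sided permutation p = 0.429 and 0.20). Eif4e2, which binds the cap and represses translation, read 38.8 to 56 and 47.9 to 119 CPM (log2 fold change 0.86 ± 0.41, adjusted p = 0.152), and the Eif4e to Eif4e2 ratio differed by 0.81 (exact permutation p = 0.107). Without cultured replicate 1 Eif4e2 passed (log2 fold change 1.20, adjusted p = 0.0235). Eif4e1b, an oocyte form, was at 0 to 5 counts per library and was not tested.

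Promoters were read for the genes that rose together. The hexamer CACGTG, the E-box bound by Myc, USF and related factors, was searched in the RefSeq windows of 300 bases (250 before and 50 after each start, GRCm38.p6), which held 50 of the 69 members. The hexamer is its own reverse complement, so both strands were covered. It occurred in the window of 8.09% of all genes (2187 of 27025). It occurred in 6 of 17 core factors that rose, in 5 of 21 that did not pass and in 0 of 4 regulators. Matches of the eIF4F genes Eif4e, Eif4g1 and Eif4a1, the cofactor Eif4h, Eif5a and Eef2k, which fell, are shown with the hexamer in capitals. Each is the match nearest before the start in 1 window of the gene, and Eif4e, Eif5a and Eef2k have 2, 6 and 3 windows. Matches of the 5 core factors that did not pass (Eef2, Eif1b, Eif3f, Eif3k and Eif5a2) are not shown.

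Eif4e: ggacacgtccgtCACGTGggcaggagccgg
Eif4g1: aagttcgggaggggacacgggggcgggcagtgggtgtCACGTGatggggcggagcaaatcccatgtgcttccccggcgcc
Eif4a1: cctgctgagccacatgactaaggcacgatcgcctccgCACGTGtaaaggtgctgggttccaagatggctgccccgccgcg
Eif4h: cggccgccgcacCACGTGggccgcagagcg
Eif5a: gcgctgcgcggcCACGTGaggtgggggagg
Eef2k: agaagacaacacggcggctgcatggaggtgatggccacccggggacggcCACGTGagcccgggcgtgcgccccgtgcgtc

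They lie at chr3:138527192-138527221 on the plus strand (Eif4e), chr16:20672636-20672715 on the plus strand (Eif4g1), chr11:69672570-69672649 on the minus strand (Eif4a1), chr5:134639488-134639517 on the minus strand (Eif4h), chr11:69920791-69920820 on the minus strand (Eif5a) and chr7:120842751-120842830 on the plus strand (Eef2k). The first base of the hexamer stood 64, 54, 189, 96, 178 and 31 bases before the start in that order. Eif4e and Eif4g1 held it 2 times in the window. A match describes the sequence and does not show that a factor binds there.

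Start codon selection is carried out by eIF1, eIF1A, eIF5 and eIF5B. Eif1ax, the X-linked eIF1A gene, read 48.7, 47.1, 57.3, 67.7 and 90.4 CPM in fresh and 183, 228 and 281 CPM in cultured libraries and rose 2.92-fold (log2 fold change 1.54 ± 0.29, adjusted p = 0.00551). Eif5b, which joins the ribosomal subunits, read 159.7, 100.04, 143, 206 and 184 CPM in fresh and 660.2, 537 and 449 CPM in culture and rose 2.81-fold (log2 fold change 1.49 ± 0.28, adjusted p = 0.00603), but its exons share 1643 bases with Rev1 on the opposite strand. For both genes the groups were well apart. The paralog Eif1a did not pass, at 205 ± 35.7 CPM (SD, n = 5) and 199 ± 63.3 CPM (SD, n = 3), nor did Eif1, at 364 ± 35.1 and 352 ± 92.6 CPM (log2 fold changes -0.07 and -0.08). Eif5, the GTPase activator of eIF2, lay higher in all cultured libraries (658 to 1011 CPM) than in the fresh ones (253 to 503 CPM) without passing (log2 fold change 0.67 ± 0.31, adjusted p = 0.139). Eif1b, close in sequence to Eif1, had log2 fold change 1.20 ± 0.69, adjusted p = 0.235, and the Eif1 to Eif1b ratio differed by -0.95 on the log2 scale (exact permutation p = 0.107).

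Eif5a encodes the hypusine-bearing factor that helps ribosomes through difficult peptide bonds, in elongation as well as at termination. It read 214, 253, 276, 92 and 104 CPM in fresh and 734, 767 and 639 CPM in cultured libraries. Run-2 fresh libraries were the lowest, and every cultured library was above all fresh ones. The gene rose 7.29-fold (log2 fold change 2.87 ± 0.24, adjusted p = 0.00017), and 1.59 (log2) against run-1 fresh cells alone. Its paralog Eif5a2 read 4.39 to 7.14 and 9.94 to 29 CPM (log2 fold change 1.76 ± 0.69, adjusted p = 0.0894) and passed without cultured replicate 3 (log2 fold change 2.11, adjusted p = 0.035), and the Eif5a to Eif5a2 ratio differed by 0.38 (exact permutation p = 0.607). Eif6, which keeps free large ribosomal subunits from joining the small ones, read 44.9, 33.7, 28.9, 11.5 and 32.7 CPM in fresh and 199.9, 72.6 and 151 CPM in culture and rose (log2 fold change 2.68 ± 0.59, adjusted p = 0.0105). Fresh replicate 4 was its lowest library, and the result without it was a log2 fold change of 2.15 with adjusted p = 0.0565. Without fresh replicate 5 the log2 fold change was 3.62 (adjusted p = 0.016).

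Eef1a1 and Eef2 were the most abundant mRNAs among the members in fresh cells, and of the 6 tested elongation factors only Eef1g rose. Per kilobase of exon, Eef1a1, which carries aminoacyl-tRNA to the ribosome, stood at 1981 CPM before and 1223 CPM in cultured cells, and Eef2, the translocase, at 691 and 485 CPM. Eef1a1 read 5262, 4765, 4420.3, 4935 and 5312 CPM in fresh and 3652, 2739 and 2754 CPM in cultured libraries. Every cultured library was below every fresh one, and the gene fell to 0.595 of the fresh level (log2 fold change -0.75 ± 0.21, adjusted p = 0.0307). This call was lost without fresh replicate 4 (adjusted p = 0.116), fresh replicate 5 (0.155), cultured replicate 2 (0.057) or cultured replicate 3 (0.0568), with log2 fold changes of -0.76 to -0.67, and was lost with unscaled library totals (-0.35, adjusted p = 0.216). Eef2 read 1925 to 2898 CPM in fresh and 1205 to 2145 CPM in cultured libraries and did not pass (log2 fold change -0.49 ± 0.29, adjusted p = 0.24). Eef1a2, the muscle fibre and neuron form of Eef1a, was at 0 to 11 counts in every library.

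Of the exchange factor subunits that reload eEF1A, Eef1g read 436, 282, 215, 212 and 180.5 CPM in fresh and 429, 406 and 366 CPM in cultured libraries. The groups overlapped through fresh replicate 1, and the gene rose against run 2 (log2 fold change 1.03 ± 0.31, adjusted p = 0.038). It did not pass without fresh replicate 2 (adjusted p = 0.0569), 4 (0.112) or 5 (0.205), or without cultured replicate 2 (0.0672) or 3 (0.0538). Eef1b2 and Eef1d had log2 fold changes of -0.02 ± 0.29 and 0.03 ± 0.27. Eef1b2 was lower in run-1 fresh libraries (405, 267 and 279.7 CPM) than in those of run 2 (589 and 603 CPM), and against run 1 alone its log2 fold change was 0.96 (adjusted p = 0.0355). Eef1e1, which encodes a small protein of the tRNA synthetase complex despite its name, read 2.56, 2.54, 4.5, 1.14 and 21.5 CPM in fresh and 66.5, 26.5 and 24.1 CPM in culture. Fresh replicate 5 stood apart, and Eef1e1 passed only in fits without it or with run-1 fresh libraries in the comparison (without it, log2 fold change 5.09, adjusted p = 0.0204, and with all libraries 1.79, adjusted p = 0.249).

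Elongation factor mRNAs and a few initiation factor mRNAs begin with a 5′ terminal oligopyrimidine (TOP) tract, through which mTORC1 and Larp1 control their translation. A list of 9 such genes (Eef1a1, Eef1b2, Eef1d, Eef1g, Eef2, Eif3e, Eif3f, Eif3h and Eif4b) gave 1 gene that rose, 1 that fell and a median log2 fold change of -0.02. Each is 11.1% of the list, while 8.87% of all genes rose and 18.0% fell. The 41 tested core factors outside the list gave 22 that rose (53.7%), none that fell and a median of 1.46. Without fresh replicate 4, none of the 9 and 14 of the 41 rose. Sequences at the RefSeq starts are shown for 2 genes of the list and for 2 genes that rose. Each run holds 15 bases on either side of the start, and capitals mark a tract that begins within 5 bases of the start with C and continues with at least 5 of C or T.

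Eif3f: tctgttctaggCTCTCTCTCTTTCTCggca
Eef1a1: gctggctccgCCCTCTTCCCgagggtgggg
Eif2s1: cgctgggttgggcgaagcgcacgctgagga
Eif3c: ctcacctgctcagagggactcggcagctta

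These are chr7:108934400-108934429 on the plus strand (Eif3f), chr9:78481710-78481739 on the minus strand (Eef1a1), chr12:78862057-78862086 on the plus strand (Eif2s1) and chr7:126566352-126566381 on the minus strand (Eif3c) of GRCm38.p6. By this rule Eif3f and Eef1a1 have tracts of 15 and 10 bases, and Eif2s1 and Eif3c have none in this window. Both tracts begin before the annotated start. They describe DNA around that start and are not shown to be the TOP tracts of the mRNAs. Of all genes with a window 11.9% held such a tract, as did 2 of the 5 listed genes with a window and 3 of 17 core factors that rose. The listed genes Eef1b2, Eef2 and Eif4b had none, and Eif4g1, Eif2b5 and Eif2s3x, which rose, had one. The sequences shown therefore do not stand for their sets.

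**Figure D4:**
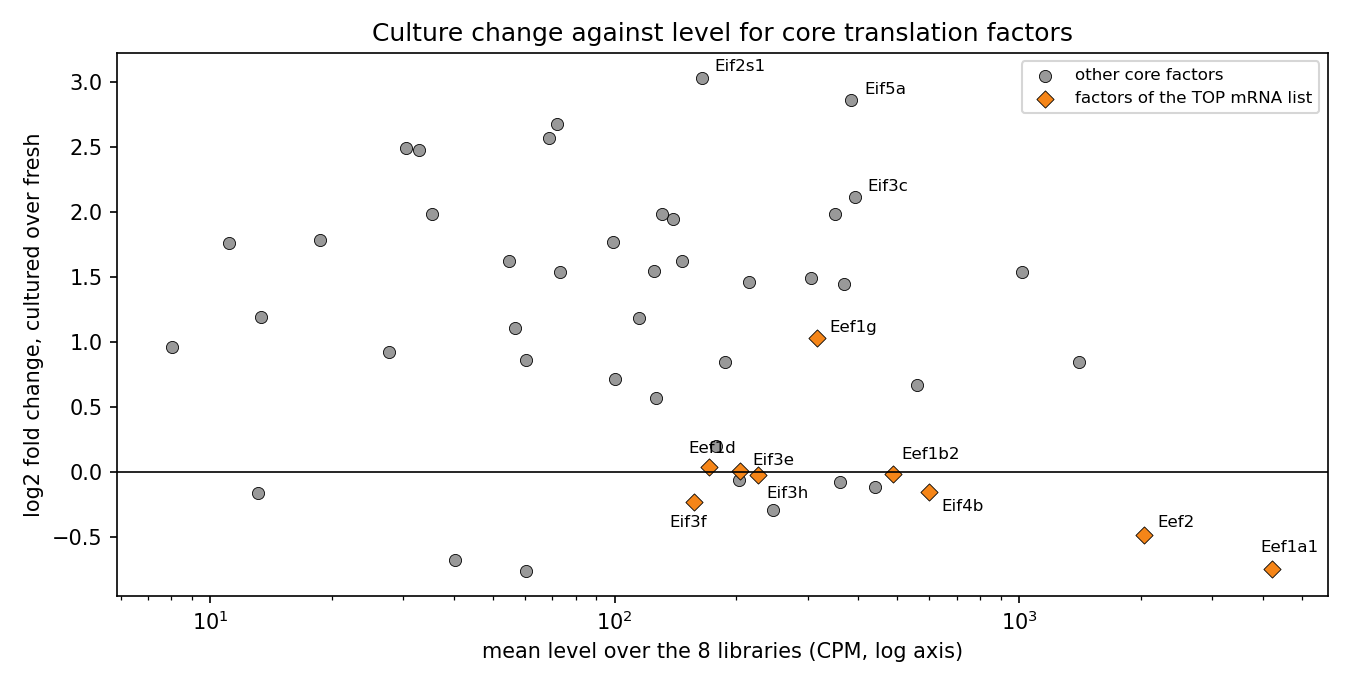
Log2 fold change in culture of each tested core factor against its mean level over the 8 libraries (CPM, log axis), with the 9 TOP mRNA factors as orange diamonds and the other 41 as grey circles. The diamonds lie around 0 (median -0.02) and most circles above it (median 1.46).

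The regulators did not move as a group. Of 5 tested, 1 rose (20.0%, against 8.87% of all genes), none fell, and the median log2 fold change was 0.60. Eif4ebp2, the translational repressor that binds eIF4E, read 54.8, 70.1, 55.2, 32.9 and 29 CPM in fresh and 49.8, 318 and 102 CPM in cultured libraries. Cultured replicate 2 was the highest by far, and cultured replicate 1 lay within the range of the fresh libraries. Eif4ebp2 passed the test (log2 fold change 2.34 ± 0.69, adjusted p = 0.0364), but not without any 1 of the fresh libraries (adjusted p between 0.0553 and 0.191) nor without cultured replicate 2 (log2 fold change 1.32, adjusted p = 0.0504). Eif4ebp1 read 23.8, 19.2, 29.9, 20.8 and 30.1 CPM in fresh and 35.5, 61.9 and 38.6 CPM in cultured libraries. All cultured libraries were above all fresh ones, yet the gene did not pass (log2 fold change 0.83 ± 0.42, adjusted p = 0.182). Eif4ebp3 was at 0 to 7 counts per library and was not tested.

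The balance of inhibitor and target was measured as a ratio. The log2 ratio of Eif4ebp1 to Eif4e was -1.66 ± 0.42 (SD, n = 5) in fresh and -2.38 ± 0.61 (SD, n = 3) in cultured libraries, and the groups overlapped (difference -0.72, exact two-sided permutation p = 0.143, 0.214 after adjustment over 9 pairs). The ratio of Eif4ebp1 to Eif4ebp2 also overlapped (difference -0.51, exact permutation p = 0.393). A p that misses the threshold does not show that these ratios are alike in the groups.

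Among the eIF2α kinases, Eif2ak4 (GCN2), which senses uncharged tRNA, read 23.4, 22.6, 23, 17.4 and 19.7 CPM in fresh and 21.2, 24.4 and 39.1 CPM in cultured libraries (log2 fold change 0.60 ± 0.43, adjusted p = 0.341). Eif2ak1 (HRI), the haem-regulated kinase, read 37.1, 36.6, 30.7, 24.6 and 26.3 CPM in fresh and 1.95, 70.3 and 32.8 CPM in culture (log2 fold change 0.46 ± 1.00, adjusted p = 0.789). Eif2ak3 (PERK), the kinase of the endoplasmic reticulum, read 13.8, 15, 11.3, 17.8 and 10.03 CPM in fresh and 1.16, 12.1 and 3.87 CPM in culture (log2 fold change -1.28 ± 0.89, adjusted p = 0.325). None of the 3 passed the test. For both Eif2ak1 and Eif2ak3, and for Eif4e3, cultured replicate 1 was far below the other cultured libraries, at 37, 22 and 11 counts.

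**Figure D5:**
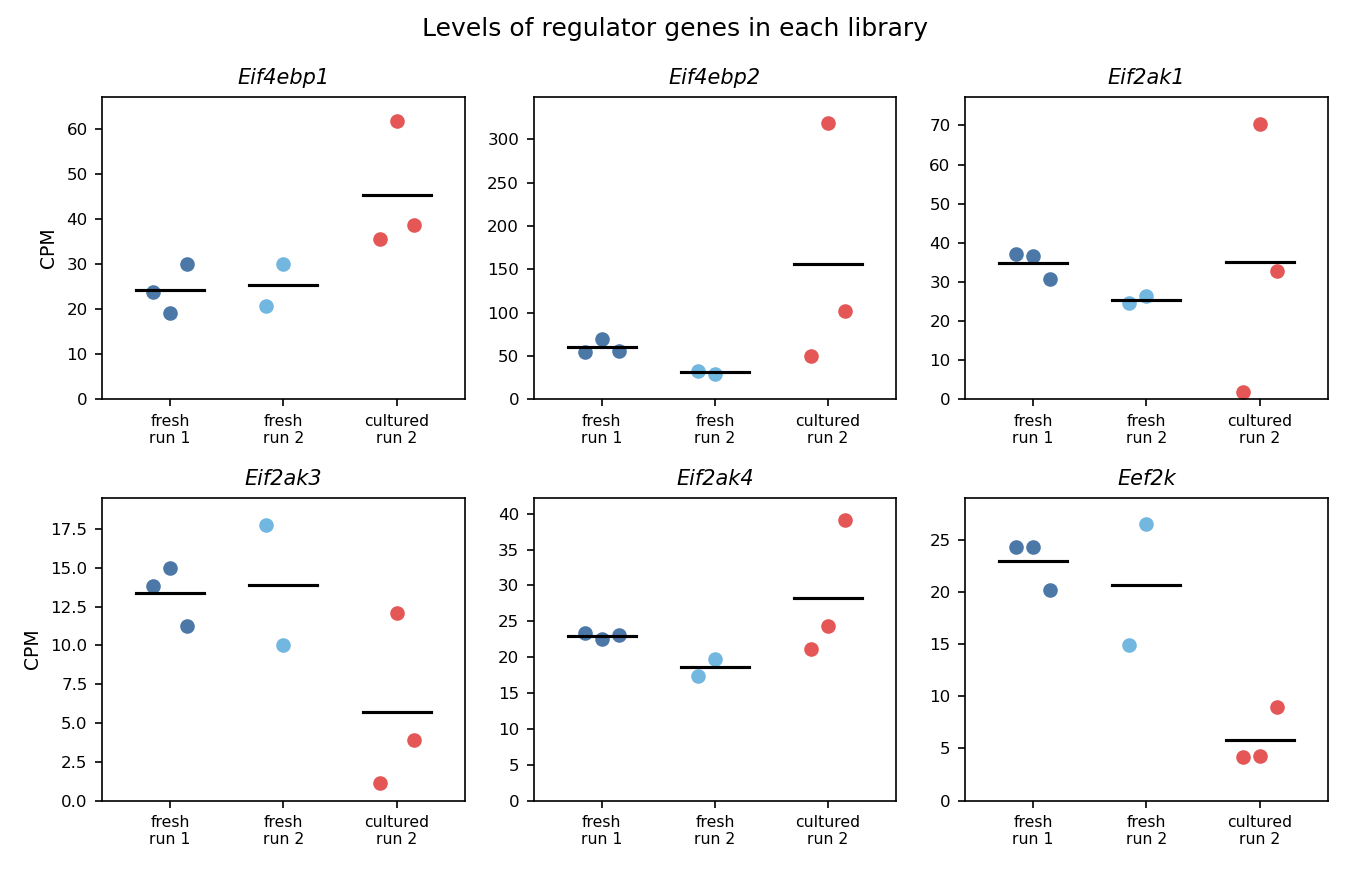
Level in CPM of Eif4ebp1, Eif4ebp2, Eif2ak1, Eif2ak3, Eif2ak4 and Eef2k in each library, by group and run, with the mean as a line. Eef2k is lower in all cultured libraries than in any fresh one, while cultured libraries spread widely for Eif4ebp2 and Eif2ak1.

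Eef2k encodes the calcium-dependent kinase that phosphorylates and stops eEF2. It read 24.3, 24.4, 20.2, 14.9 and 26.6 CPM in fresh and 4.22, 4.27 and 8.97 CPM in cultured libraries, with no overlap. Eef2k fell (log2 fold change -1.83 ± 0.56, adjusted p = 0.04), but the adjusted p was above 0.05 without any 1 library except cultured replicate 3, and ranged from 0.0512 to 0.264 in those fits (log2 fold change -2.14 to -1.34). Eif1ad, a protein with an eIF1A-like domain, rose (log2 fold change 2.71 ± 0.49, adjusted p = 0.00497), though its exons share 428 bases with Banf1 on the opposite strand. Eif4enif1, the eIF4E transporter, and Eef2kmt, the methyltransferase of eEF2, did not pass (log2 fold change 0.15 and 1.02, adjusted p = 0.744 and 0.293).

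Among 5 pseudogene lines, 4 were tested and 1 rose. Eif4a-ps4, a processed copy of Eif4a1, rose (log2 fold change 2.35 ± 0.23, adjusted p = 0.000367) (149, 165, 175, 62 and 73.4 CPM in fresh and 336, 316 and 381 CPM in culture). Eif3s6-ps1, a copy of Eif3e, differed by run like its parent (22.4, 16, 35.1, 75.5 and 76.2 CPM in fresh libraries) and did not pass (log2 fold change 0.17, adjusted p = 0.784). RSEM divides reads that fit both places, so copy and parent cannot be told apart. With the reads of named copies added to the parent, 23 core factors rose and 1 fell, as before. Eif1-ps1 (log2 fold change 0.65, adjusted p = 0.471) and Eif3s6-ps2 (0.37, adjusted p = 0.802) did not pass, and Eif1-ps3 and Eif2c5 had too few counts to be tested.

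The genes around the factors were counted by list. Of 17 genes of mTORC1 and its inputs, 3 rose (17.6%, against 8.87% of all genes) and 4 fell (23.5%, against 18.0% of all genes), with a median log2 fold change of -0.01. Among genes with a mean of at least 10 CPM, which include 15 of the 17, 16.5% rose and 16.6% fell. The share of the list that rose was near that of such genes. Deptor, an inhibitor of mTOR, fell from 456 to 574 CPM in fresh to 26.8 to 67.2 CPM in cultured libraries (log2 fold change -3.36 ± 0.36, adjusted p = 0.000529). Mknk2, a kinase that phosphorylates eIF4E, went from 70.5 to 112 to 3.95 to 5.81 CPM (log2 fold change -4.10 ± 0.34, adjusted p = 0.000182), and Sesn1, an inhibitor of mTORC1, from 70.0 to 87.6 to 0.211 to 1.29 CPM (log2 fold change -6.49 ± 0.64, adjusted p = 0.000348). The fourth that fell was Pdcd4 (log2 fold change -2.79, adjusted p = 0.0312), an inhibitor of eIF4A. The 3 that rose were Larp1 (log2 fold change 1.58, adjusted p = 0.0034), which binds TOP mRNAs, Rptor (log2 fold change 1.46, adjusted p = 0.0235), the adaptor of mTORC1, and Sesn2 (log2 fold change 1.83, adjusted p = 0.0352), an inhibitor of it. Rptor did not pass without fresh replicate 4 (adjusted p = 0.156) or cultured replicate 3 (0.051). Sesn2 and Pdcd4 each failed without 6 of the 8 libraries taken singly, with adjusted p up to 0.194 (without fresh replicate 5) and 0.158 (without fresh replicate 4). Sesn2 reached 2.55 (log2 fold change) when fresh replicate 4 was left out, and Pdcd4 -4.16 when cultured replicate 3 was. Without cultured replicate 3, 1 gene of the list rose and 5 fell.

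Of 10 genes of the integrated stress response, the programme downstream of phosphorylated eIF2α, 4 rose (40.0%, against 8.87% of all genes) and 1 fell. In run 2 alone 1 rose and 1 fell, and with the replicate block 2 rose and 1 fell. Atf4, the transcription factor at its head, read 488 to 714 CPM in fresh and 492 to 661 CPM in culture (log2 fold change 0.17, adjusted p = 0.644), and its target Ddit3 did not pass either (-0.13, adjusted p = 0.861). Asns, which makes asparagine, read 0 to 3.82 CPM in fresh and 55.5 to 59 CPM in cultured libraries (log2 fold change 5.19 ± 1.38, adjusted p = 0.0235). Fresh replicate 4 was the library at 0 counts. The log2 fold change of Asns was 4.24 without that library and, with it as the only run-2 fresh library, a fitted 13.0 that has no bound from the counts, and in run 2 alone it did not pass (5.18, adjusted p = 0.0814). Ppp1r15a, the phosphatase subunit that removes the phosphate from eIF2α, fell from 431 to 771 to 97.2 to 267 CPM (log2 fold change -1.79 ± 0.42, adjusted p = 0.0135). Atf5, Gcn1l1 (an activator of GCN2) and Trib3 were the others that rose (log2 fold changes 1.74 and 1.59 for Atf5 and Gcn1l1, adjusted p = 0.00636, 0.0262 and 0.0225). In all, 2 genes of the list rose and none fell without fresh replicate 4 or without fresh replicate 5, where Ppp1r15a had adjusted p = 0.0566 and 0.0573, Trib3 0.0704 and 0.127, Gcn1l1 0.143 in the first and Atf5 0.0501 in the second. When fresh replicate 5 was left out, Gcn1l1 stood at 2.27 (log2 fold change).

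Of 13 genes of termination, recycling, poly(A) binding and reinitiation, 5 rose (38.5%, against 8.87% of all genes) and none fell (18.0% of all genes). Among genes with a mean of at least 10 CPM, 16.5% rose. Pabpc1, the main poly(A)-binding protein and a partner of eIF4G, read 668 to 917 CPM in fresh and 1965 to 2539 CPM in cultured libraries (log2 fold change 1.74 ± 0.23, adjusted p = 0.00139). The others were Pabpc4 (log2 fold change 2.64, adjusted p = 0.00235), Gspt1 (log2 fold change 1.93, adjusted p = 0.00487), the release factor eRF3, Abce1 (log2 fold change 1.85, adjusted p = 0.00281), which splits terminated ribosomes, and Denr (log2 fold change 2.82, adjusted p = 0.006), a reinitiation factor. None of the 8 hypusine and diphthamide enzymes, which modify eIF5A and eEF2, passed edgeR's test, in which 8.87% of all genes rose. Their median log2 fold change was 1.40, and 3 were higher at an unadjusted p under 0.05. DESeq2 called 3 of them higher, beside 2498 of all 19054 genes. In edgeR 2 of them were higher without cultured replicate 1 (2198 of 21946 genes) or without cultured replicate 3 (1716 of 21907 genes). Of 9 mitochondrial translation factors, which serve another ribosome, Gfm1 (log2 fold change 2.26, adjusted p = 0.00454) rose and none fell. The share that rose, 11.1%, was near the 8.87% of all genes. Without cultured replicate 3 that list had 1 gene that rose and 1 that fell, and without cultured replicate 1 or fresh replicate 5 it had 2 that rose.

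The labelled cell type was checked against its markers. The 7 muscle stem cell markers summed to 2233 to 3050 CPM in fresh and 598 to 704 CPM in cultured libraries. Pax7, the transcription factor that defines these cells, fell (log2 fold change -4.05, adjusted p = 0.000253) and Myod1, the factor of activated myoblasts, rose (1.63, adjusted p = 0.00506). Marker sums of other cells were 247 to 2013 CPM for pericytes, 551 to 945 CPM for fibro-adipogenic cells, 50.8 to 806 CPM for Schwann cells, 78.5 to 119.8 CPM for endothelial and 23.8 to 69.6 CPM for immune cells in fresh libraries. The 8 muscle fibre markers summed to 104 to 129 CPM in fresh libraries and 255, 126 and 126 CPM in cultured replicates 1 to 3. Only cultured replicate 1 lay above the fresh range. Of these 8 genes 0 rose and 1 fell, and most of the sum was Ttn (74.9 to 105 and 101 to 178 CPM). For the other 5 types the sums in culture were at most 11.8, 18.9, 3.47, 41.2 and 5.92 CPM in that order, and 10 of their 29 genes stood at 0 in all cultured libraries (Ly6a, which encodes Sca1, Cd248, Kcnj8, Abcc9, Kdr, Egfl7, Csf1r, Lyz2, Sox10 and Cdh19). Fresh replicate 1 had the lowest pericyte, fibro-adipogenic, Schwann and immune sums. In it the median core factor was at 0.10 (log2) relative to run-2 fresh cells, and the core count without it was unchanged at 23. The part of these other cells in the differences of the translation factors was not tested.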

How the data were processed

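Gene expression was measured in 8 RNA-seq libraries, amplified as cDNA with NuGEN Ovation v2 per the labels' protocols, which mention no molecular identifiers. The authors deposited expected counts for each gene, the kind of estimate RSEM writes, and STAR, RSEM and mm10 are named per the submitters' processing notes. Versions, annotation and strand setting were not given in the sources used here. All 92 ERCC lines were left out. Counts were rounded to whole numbers, filtered with filterByExpr, scaled by TMM and tested with edgeR 4.0.16 in R 4.3.3, under a model of run plus culture, at a Benjamini-Hochberg threshold of 0.05. Standard errors were derived from each log2 fold change and its F statistic and are approximate. Ratios of paralogs were taken on CPM with a pseudocount of 1 and tested by exact permutation in scipy 1.17.1. Coordinates are from GENCODE M21, and sequences from RefSeq. DESeq2 1.42.0 served as an alternative test, beside other filters, scalings, run settings and each library left out. The model code was tested on simulated counts. The members and lists were chosen with earlier results of these data known. All members are counted. Named with values are the regulators, Eef2k, the genes of the pairs, the eIF2 subunits, Eif6, Eef2, and in each role the 4 or fewer called members that differed most at a mean of 10 CPM or more, per pathway list up to 3, with others where they complete a small count. Members named beyond this, the eIF3 sets and the genes whose sequences are shown were chosen after their values were seen.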

Additional observations from a re-analysis of the deposited data

Results flagged for a closer look

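Among the 5 fresh libraries, 1 value stood apart from the other 4 by Dixon's criterion for 3 of the 63 tested members, where chance marks about 1 in 20 groups. Eef1e1, of the tRNA synthetase complex, read 21.5 CPM in fresh replicate 5 and 1.14 to 4.50 CPM in the other fresh libraries. Eif1, the start codon factor, read 303 CPM in fresh replicate 2 and 365 to 389 CPM in the others. Eef2kmt, the eEF2 methyltransferase, read 22.8 CPM in fresh replicate 1 and 9.12 to 12.5 CPM in the others.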

How the results depend on the processing

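Of the 28 members called, none changed direction under any alternative run. The calls of Eif4e, Eif4g1, Eif4h, Eif2s1, Eif2s3x, Eif3a, Eif3b, Eif3c, Eif5a, Eif1ax, Eif5b, Eif1ad and Eif4a-ps4 held under every alternative run for them. Core factors that rose numbered 14 to 25 with 1 library left out, and those that fell 0 or 1, with 0 in unscaled totals and with the replicate block and 2 against run-1 fresh libraries alone. The regulator that rose was not called in run 2 alone, against run-1 fresh libraries alone or with the replicate block (0 in each), with 0 or 1 when a library was left out. Of the TOP list, 0 rose without the run term and 2 against run-1 fresh libraries alone, and 0 fell in unscaled totals and with the replicate block and 2 against run-1 fresh libraries alone, with 0 or 1 in each direction when a library was left out. Over all genes, 1013 rose and 1767 fell in run 2 alone, 1659 fell among genes of at least 10 CPM and 1384 with the replicate block, and 896 to 2198 rose with a library left out. Between fresh runs, where 18 genes were higher and 18 lower in run 2, leaving out a library gave 1 to 24 higher and 0 to 12 lower, and unscaled totals 10 higher. Core factors gave 0 or 1 higher there with a library left out, and 1 lower in unscaled totals. Replicate numbers 1 to 3 are shared by fresh and cultured libraries. Same-numbered libraries did not deviate together (r = 0.020, 0.011 and 0.0039), but this check cannot settle whether the numbers pair them. The fresh libraries of those numbers are run 1 and the cultured ones run 2, and the sources do not give their origin. The replicate block, a term for replicate number, held only these libraries, so culture and run cannot be told apart in it. With the replicate block 23 core factors rose and Eif4a1 (adjusted p = 0.0984), Eif4a3 (0.0722), Eif2b1 (0.0549), Eif2b3 (0.0688) and Eif2b5 (0.0865) did not pass, and neither did Eef1a1 (0.0727), Eef1g (0.214), Eef2k (0.0897) and Eif4ebp2 (0.163). Members that were not called changed sign as follows (log2 fold change): with DESeq2 size factors Eef1d (-0.027) and Eif3e (-0.056), and without scaling Eif4a2 (0.29), Eif4b (0.27), Eif4g3 (0.085), Eef1b2 (0.42), Eif2d (0.30), Eif3f (0.17), Eif3h (0.37), Eif1 (0.31) and Eif1a (0.32), and without the filter on low counts Eef1b2 (0.029) and Eif3h (0.015), and with only genes of at least 10 CPM Eef1d (-0.037) and Eif3e (-0.070), and in DESeq2 Eef1d (-0.027) and Eif3e (-0.056), and without the run term Eif4a2 (0.26) and Eef1b2 (0.46), and in run 2 alone Eif3e (-0.015), and against run-1 fresh libraries alone Eif4a2 (0.63), Eef1b2 (0.96), Eif1 (0.028) and Eif1a (0.029), and with the replicate block Eif4a2 (0.67), Eef1b2 (0.94), Eif1 (0.014), Eif1a (0.021) and Eif2ak1 (-0.70). With a library left out, members that changed sign ranged as follows: Eif3e -0.039 to 0.14, Eif4a2 -0.18 to 0.011, Eef1b2 -0.27 to 0.18, Eef1d -0.14 to 0.31, Eif2d -0.65 to 0.68, Eif3h -0.12 to 0.12, Eif1a -0.29 to 0.10, Eif4b -0.21 to 0.014, Eif2a -0.035 to 0.33, Eif4enif1 -0.010 to 0.29, Eif2ak1 -0.49 to 1.08, Eif1 -0.23 to 0.090. The Eef1a1 to Eef1a2 ratio differed by 0.0047 at a pseudocount of 0.1 in place of -0.53 at 1, since Eef1a2 was near 0. The processed-copy alternative and the unscaled sums were chosen after seeing the data. Why these values changed was not tested. Depth limits Eif2b4, Eif4ebp3, Eif4e1b, Eef1a2 and the pseudogene lines other than Eif4a-ps4 and Eif3s6-ps1, with few counts. Eif4a-ps4 and Eif3s6-ps1 cannot be told apart from their parent genes. Intervals between libraries rest on 2 run-2 fresh libraries.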
